A study of Mus musculus with 12 samples.

Results

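The 10 genes described here encode the path by which a cell displays peptides from its own proteins on MHC class I: the heavy chains H2-K1 and H2-D1 with their light chain B2m, the peptide transporter subunits Tap1 and Tap2 with tapasin (Tapbp), the immunoproteasome subunits Psmb8, Psmb9 and Psmb10, and the transactivator Nlrc5. They were taken by gene symbol, whatever their values, from a count table of 24728 genes. Every one of the 10 had a single row, and all 10 passed the low-count filter that left 13414 genes for testing. Counts of a member in a library ran between 363 (Nlrc5) and 102931 (H2-D1), and the 10 genes together took 0.602% to 1.23% of a library.

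The macrophages were grown from mouse bone marrow, carried the fluorescent protein dTomato, and were recovered by flow sorting from ex vivo assays with dissociated brain tumor, per the labels. The study as a whole, per its title and design text, asks how macrophages and glioblastoma cells act on each other and what becomes of myelin taken up by macrophages. Its tumors come from mice in which PDGFB is expressed in Nestin-positive progenitors, either on an Ink4a/Arf knockout background or with knockdown of p53. The 4 groups of macrophages were each sequenced as 3 bulk RNA libraries: Full Tumor, Tumor without Myelin, Myelin Alone and Control. The names say that the first pair received tumor material, with and without its myelin, and that Myelin Alone received myelin. The labels do not say what Control macrophages received, how long any exposure lasted, or which of the tumor models gave the material. Each group held a library of the mn numbers 957, 958 and 016, a tag whose meaning the labels do not give. Nothing states that the 3 libraries of a group came from separate animals, so p-values measure the spread between libraries, which may be technical.

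Class I molecules are trimers of a heavy chain, B2m and a short peptide. Peptides are cut in the cytosol by the proteasome, whose constitutive catalytic subunits Psmb6, Psmb7 and Psmb5 are replaced by Psmb9, Psmb10 and Psmb8 in the immunoproteasome, carried into the endoplasmic reticulum by the Tap1 and Tap2 heterodimer, and loaded onto the heavy chain with the help of tapasin, calreticulin and Pdia3. Interferons induce most of these genes, through IRF factors and Nlrc5 among others, and macrophages are among the cells in which the path is active at rest.

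On the mm10 build, 7 of the 10 genes lay in the histocompatibility region of chromosome 17. Tapbp (ENSMUSG00000024308) spans 33915899 to 33929292 and H2-K1 (ENSMUSG00000061232) spans 33996017 to 34000347. A compact block followed, with Psmb9 (ENSMUSG00000096727) at 34181987 to 34187764, Tap1 (ENSMUSG00000037321) at 34187553 to 34197225, Psmb8 (ENSMUSG00000024338) at 34197721 to 34201454 and Tap2 (ENSMUSG00000024339) at 34203527 to 34216321. H2-D1 (ENSMUSG00000073411) lay farther along, at 35262730 to 35267499. B2m (ENSMUSG00000060802) is on chromosome 2 at 122147686 to 122153083, while Nlrc5 (ENSMUSG00000074151, 94434356 to 94527272) and Psmb10 (ENSMUSG00000031897, 105935735 to 105938444) are both on chromosome 8.

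Neighbouring and related genes limit how far some counts can be assigned. Exons of Tap1 and Psmb9, which are transcribed in opposite directions, share 212 bases in the GENCODE M21 annotation, which is 3.87% of the exonic length of Tap1 and 5.79% of that of Psmb9. Exons of predicted genes and neighbours covered 24.9% of Tapbp (Gm19412), 14.7% of Psmb8 (Gm20496) and 14.1% of Tap2 (Gm15821). Stretches of 75 bases that also occur in another gene made up 6.90% of H2-D1, mostly shared with H2-Q1, and 1.55% of H2-K1, shared with H2-D1. How the counting treated strand and reads with several matches was not given in the sources used here. Reads in these stretches could therefore not be assigned to 1 gene with certainty.

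The stretches before the RefSeq starts of 4 members are printed because the heavy chains and B2m share a set of regulatory letters. Tap1, the transporter gene with the widest swing between libraries, holds only a part of that set. RefSeq windows of 250 bases (GRCm38.p6, the coordinates of mm10) were found for 8 of the 10 members, all but Tap2 and Nlrc5. Each sequence below runs 5′ to 3′ on the strand of its gene and ends at the base before the start. Capitals mark matches, on either strand, to a CCAAT box (CCAAT, or ATTGG read from the other strand), a CREB/ATF element (TGACG), an IRF element (AANNGAAA), an interferon-stimulated response element core (ISRE, 2 copies of GAAA with any 2 bases between them, which contains an IRF element) or an NF-kB site. They lie at chr17:34000348-34000597 on the minus strand for H2-K1, and on the plus strand at chr17:35262844-35263093 for H2-D1 (inside the span that GENCODE gives the gene), chr2:122147437-122147686 for B2m and chr17:34187306-34187555 for Tap1.
H2-K1: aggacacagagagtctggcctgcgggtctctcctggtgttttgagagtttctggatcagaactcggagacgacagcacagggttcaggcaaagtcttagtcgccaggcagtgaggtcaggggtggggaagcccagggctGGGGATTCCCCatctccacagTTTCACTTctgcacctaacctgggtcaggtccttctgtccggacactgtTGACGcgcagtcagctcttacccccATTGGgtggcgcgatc
H2-D1: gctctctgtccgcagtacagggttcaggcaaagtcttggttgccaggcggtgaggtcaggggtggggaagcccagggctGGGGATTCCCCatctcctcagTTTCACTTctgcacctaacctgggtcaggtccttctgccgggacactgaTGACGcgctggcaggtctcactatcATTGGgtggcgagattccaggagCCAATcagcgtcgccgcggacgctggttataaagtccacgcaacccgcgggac
B2m: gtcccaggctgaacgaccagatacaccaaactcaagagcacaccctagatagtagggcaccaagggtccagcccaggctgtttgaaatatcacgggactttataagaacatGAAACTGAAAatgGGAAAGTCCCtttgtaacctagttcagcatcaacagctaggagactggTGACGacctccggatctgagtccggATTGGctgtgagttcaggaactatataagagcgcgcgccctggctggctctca
Tap1: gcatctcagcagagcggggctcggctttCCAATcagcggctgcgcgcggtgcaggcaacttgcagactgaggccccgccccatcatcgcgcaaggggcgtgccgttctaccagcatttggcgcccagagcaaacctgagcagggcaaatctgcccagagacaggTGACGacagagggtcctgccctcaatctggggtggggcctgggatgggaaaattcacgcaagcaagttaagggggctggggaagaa

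H2-K1 and H2-D1 carried the identical NF-kB match GGGGATTCCCC followed by the IRF element TTTCACTT, then a CREB/ATF element and a CCAAT box. The IRF element lay 90 to 83 bases before the start of H2-K1 and 150 to 143 bases before that of H2-D1. B2m held its ISRE core 139 to 130 bases before the start and an NF-kB match just downstream, 126 to 117 bases before it. Tap1 showed a CREB/ATF element and a distant CCAAT box and no ISRE, IRF or NF-kB letters in this window, which partly overlaps that of Psmb9 on the other strand.

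Over the 8 member windows, the CCAAT box occurred in 6, against 33.8% of 32536 RefSeq windows of the same length. The CREB/ATF element was in 5 (17.9% of all windows), the IRF element in 3 (21.3%) and the NF-kB match in 3 (7.28%). The overlapping windows of Tap1 and Psmb9 hold the same CCAAT and CREB/ATF bases, read from opposite strands. Each of these matches is thus counted for both genes. An ISRE core was found in 1 (2.98% of all windows) and the gamma-activated sequence TTCNNNGAA in 1, Psmb8 (7.04%). The IRF element and the CREB/ATF element were added to the search after the sequences had been seen. These are matches of letters, not measured binding.

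Libraries held 17071673 to 21689624 counts, which puts the level that a count of 0 allows (3 counts) at 0.138 to 0.176 CPM (the count scaled to a common library total), far under every value of a member. Macrophage markers (Adgre1, Csf1r, Cd68, Lyz2 and the rest of 8) summed to 13291 to 18162 CPM in all 12 libraries. Markers of T and NK cells summed to at most 8.22 CPM, of B cells to 4.25, of dendritic cells to 10.3 and of endothelial cells to 31.6. Cd3d, Cd3e, Cd3g, Cd8a, Gzma and Ncr1 have no row in the table used here. Tumor and oligodendrocyte lineage markers summed to 55.2 to 91.0 CPM and did not sort by group. Of the 9 with a row, however, only 1 reached 10 CPM in any library, and Mog had no row. The tumor libraries of number 016 lay below those of the other numbers for every member but Tap2. Its Myelin Alone and Control libraries did not stand apart as a set. They lay below the same groups of the other numbers for H2-K1, for example, and between them for Tapbp and Psmb8. Every result that turns on number 016 is given by number.

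Per kilobase of the longest coding transcript, B2m (2259 CPM per kb on average over the 12 libraries) and H2-D1 (2210) had the highest levels of the members, followed by H2-K1 (996). Tapbp stood at 208 CPM per kb and the immunoproteasome subunits at 154 (Psmb10), 131 (Psmb8) and 66.4 (Psmb9). The transporter subunits were lower, with Tap1 at 17.3 and Tap2 at 8.07, and Nlrc5 was the lowest at 4.35 CPM per kb. Ranges over the 12 libraries overlapped between most neighbours in this order, as for B2m and H2-D1 (1746 to 3071 and 1372 to 2749 CPM per kb). They were apart for H2-K1 (560 to 1429) and Tapbp (148 to 275), and for Psmb9 (30.2 to 121) and Tap1 (10.0 to 29.3). These are sums over all cells of a library, in which fewer cells of a type and less RNA per cell cannot be told apart.

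The heavy chains and their light chain come first. H2-K1, a classical heavy chain that presents peptides to CD8 T cells, was measured at 2096, 2078 and 906 CPM in numbers 957, 958 and 016 of Full Tumor and at 2032, 2313 and 1019 CPM in Tumor without Myelin, against 1539.6, 1466 and 1239 CPM in Myelin Alone and 1690.3, 1615 and 1358 CPM in Control, all in the same order of numbers. Tumor libraries were thus the highest of their number in 957 and 958, and the lowest of theirs in 016. H2-D1, the second classical heavy chain and the most counted member, stood at 5437, 5462 and 2884 CPM in Full Tumor and at 4956, 5779 and 3048 CPM in Tumor without Myelin, against 5199, 4688 and 3942 CPM in Myelin Alone and 5078, 4865 and 4402 CPM in Control. Its tumor and other libraries overlapped in number 957, while in 016 both tumor libraries lay below the others. B2m, which every class I heavy chain needs to reach the surface, was at 2424, 2641 and 1553 CPM in Full Tumor and at 2195, 2446 and 1666 CPM in Tumor without Myelin, against 1860.1, 1624 and 1808 CPM in Myelin Alone and 1735, 1501 and 1858 CPM in Control. Here too the tumor libraries were the higher pair in 957 and 958 and the lower pair in 016.

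Group means followed from these values. H2-K1 averaged 1694 ± 682 CPM in Full Tumor, 1788 ± 680 in Tumor without Myelin, 1415 ± 157 in Myelin Alone and 1554 ± 174 in Control (SD, n = 3 each). B2m averaged 2206 ± 576, 2102 ± 399, 1764 ± 124 and 1698 ± 181 CPM in the same order of groups. The SD of the tumor groups was above that of the others for H2-K1, because number 016 lay far from the other libraries. For H2-D1 the order of means was Control (4782 ± 345 CPM), Myelin Alone (4610 ± 633), Full Tumor (4595 ± 1481) and Tumor without Myelin (4594 ± 1401), and no neighbours in it were apart by more than their SD.

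The genes of peptide transport and loading followed. Tap1, a subunit of the transporter that carries peptides into the endoplasmic reticulum, was at 82.2, 59.5 and 40.4 CPM in Full Tumor and at 72.3, 86.4 and 37.5 CPM in Tumor without Myelin, against 40.9, 38.9 and 42.3 CPM in Myelin Alone and 47.8, 29.7 and 35.1 CPM in Control. Numbers 957 and 958 had their tumor libraries clear of the others, and in 016 the 4 libraries were interleaved. Tap2, its partner subunit, was at 26.9, 20.8 and 28.5 CPM in Full Tumor and at 29.0, 34.2 and 25.0 CPM in Tumor without Myelin, against 28.1, 25.8 and 31.1 CPM in Myelin Alone and 23.4, 23.9 and 36.6 CPM in Control. Tap2 did not track Tap1: its tumor and other libraries overlapped in 957 and 958, and its highest value of all was Control 016. Tapbp, which bridges the transporter and the empty heavy chain, was at 782, 798 and 436 CPM in Full Tumor and at 772, 685 and 504 CPM in Tumor without Myelin, against 620.1, 455 and 504 CPM in Myelin Alone and 675, 428 and 591 CPM in Control. Its tumor libraries were the higher pair in 957 and 958, and Full Tumor 016 was among the lowest values.

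The immunoproteasome subunits replace the constitutive catalytic subunits and alter the ends of the peptides produced. Psmb8 stood at 245, 272 and 151 CPM in Full Tumor and at 227, 290.3 and 171 CPM in Tumor without Myelin, against 168, 225 and 191 CPM in Myelin Alone and 187, 235 and 193 CPM in Control. Psmb9 stood at 113, 135 and 40.8 CPM in Full Tumor and at 112, 164 and 59.6 CPM in Tumor without Myelin, against 60.6, 100.3 and 56.8 CPM in Myelin Alone and 81.1, 97.2 and 57.2 CPM in Control. Psmb10 stood at 239.9, 269 and 112 CPM in Full Tumor and at 243, 292 and 123 CPM in Tumor without Myelin, against 157, 225 and 138 CPM in Myelin Alone and 213, 243 and 169 CPM in Control. All 3 subunits were highest in the tumor libraries of 957 and of 958, and in 016 Psmb8 and Psmb10 were lowest in the tumor libraries while Psmb9 was interleaved. Number 016 had the lowest Psmb9 and Psmb10 of every group.

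Nlrc5, which is recruited to class I promoters and drives their transcription, was at 47.1, 52.4 and 21.3 CPM in Full Tumor and at 45.9, 50.8 and 24.9 CPM in Tumor without Myelin, against 30.4, 31.6 and 23.5 CPM in Myelin Alone and 28.8, 19.9 and 19.4 CPM in Control. Its group means were 40.2 ± 16.6, 40.5 ± 13.8, 28.5 ± 4.36 and 22.7 ± 5.27 CPM in that order of groups (SD, n = 3 each). The tumor libraries of 957 and 958 ran between 45.9 and 52.4 CPM and no other library passed 31.6 CPM.

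**Figure D1:**
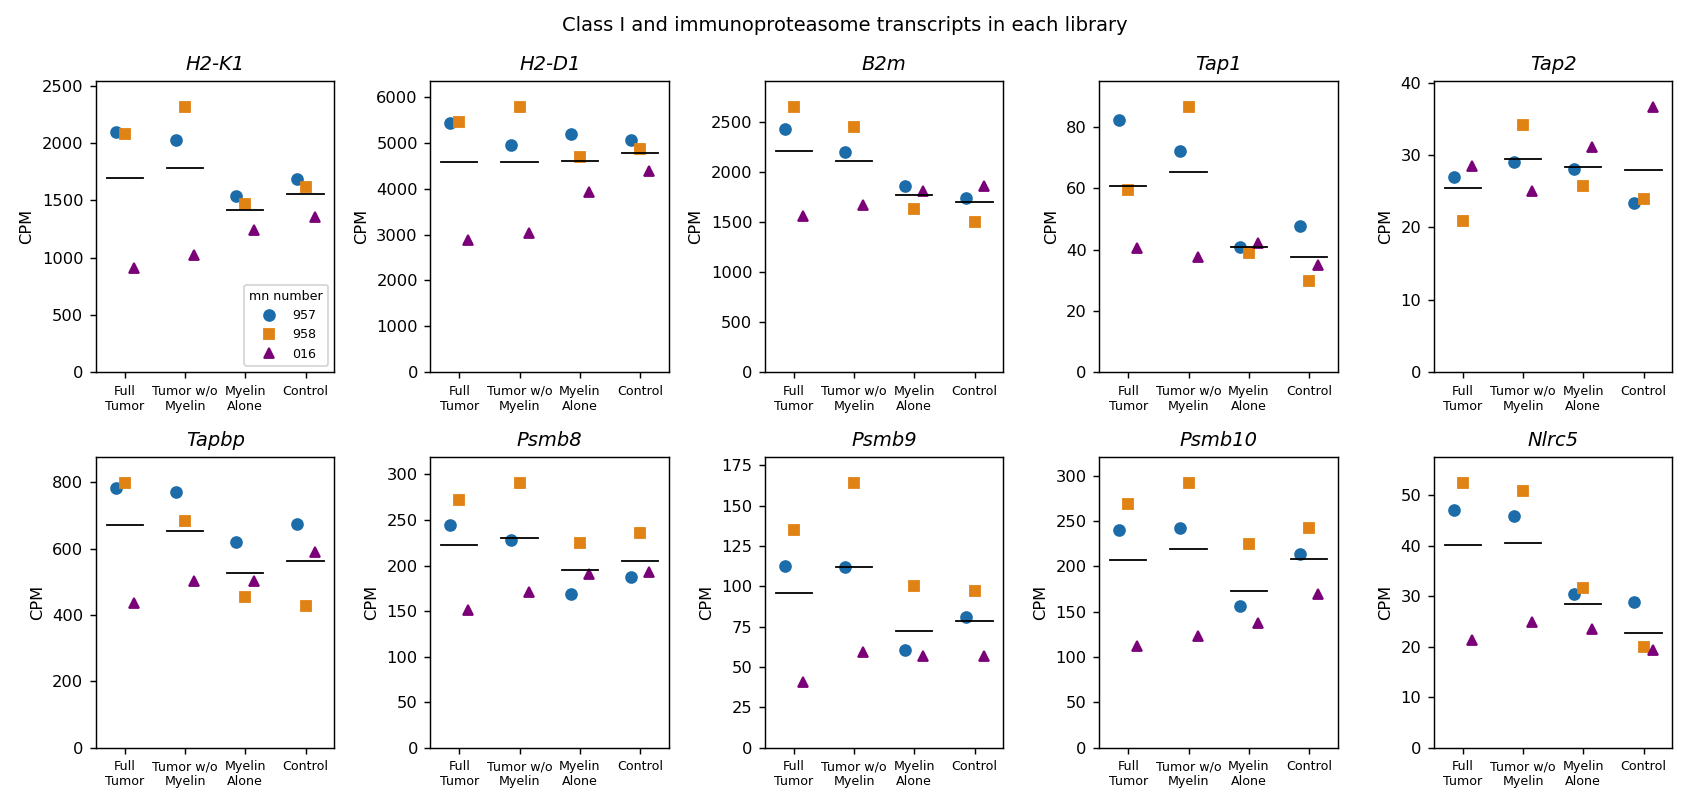
CPM of each of the 10 genes (vertical axes, starting at 0) in Full Tumor, Tumor without Myelin, Myelin Alone and Control (horizontal axes), with a marker for each of the 3 mn numbers and a black bar at the group mean. Circles and squares (957 and 958) mostly lie higher in the tumor groups, while triangles (016) lie lowest in the tumor groups for H2-K1, at 906 and 1019 CPM.

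Whether tumor material, myelin or both changed these genes was first tested over all 3 numbers together. With edgeR's quasi-likelihood test and group as the only term, 0 of the 10 members were called at an adjusted p under 0.05 in Full Tumor against Control, where 0% of the 13414 genes were called. The count was likewise 0 of 10, against 0% of all genes, for Tumor without Myelin against Control, Full Tumor against Myelin Alone, Myelin Alone against Control, Full Tumor against Tumor without Myelin and the interaction of myelin with tumor material. At an unadjusted p under 0.05 the same fit held 560, 548, 402, 279, 161 and 153 genes in these 6 comparisons. No pair of groups had non-overlapping ranges for any member (0 of 10 in each of 6 pairs). Over all genes the share without overlap was 8.1% for Full Tumor and Control, 7.69% for Tumor without Myelin and Control, 6.75% for Full Tumor and Myelin Alone, 8.46% for Tumor without Myelin and Myelin Alone, 5.02% for Full Tumor and Tumor without Myelin, and 5.78% for Myelin Alone and Control.

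Nlrc5 and Tap1 had the largest fitted differences. Nlrc5 was 0.83 ± 0.35 (log2, ± SE) in Full Tumor against Control (unadjusted p = 0.0368, edgeR adjusted p = 1) and 0.84 ± 0.35 in Tumor without Myelin against Control (unadjusted p = 0.0348, edgeR adjusted p = 1). Tap1 was 0.69 ± 0.32 and 0.80 ± 0.32 in the same comparisons. B2m was 0.38 ± 0.20 and 0.31 ± 0.20. H2-D1 was −0.06 ± 0.26 in both, and the remaining members lay between −0.14 and 0.51. For myelin by itself, Myelin Alone against Control, differences ran between −0.27 (Psmb10) and 0.33 (Nlrc5), and for myelin in the presence of tumor material, Full Tumor against Tumor without Myelin, between −0.22 (Psmb9) and 0.07 (B2m).

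Both tumor groups were also averaged and set against the average of Myelin Alone and Control, a contrast called the pooled tumor effect. It was 0.69 ± 0.23 for Tap1 (unadjusted p = 0.0105, edgeR adjusted p = 0.456), 0.67 ± 0.25 for Nlrc5 (unadjusted p = 0.0198, edgeR adjusted p = 0.611) and 0.32 ± 0.14 for B2m (unadjusted p = 0.0425, edgeR adjusted p = 0.819). In all, 0 of the 10 members were called, against 0.0745% of all genes. The mn numbers paired the libraries, so the fit was repeated with the number as a block. It again called 0 of 10 in the pooled effect, against 2.25% of all genes, with Nlrc5 at 0.60 ± 0.15 (edgeR adjusted p = 0.0763) and Tap1 at 0.64 ± 0.18 (edgeR adjusted p = 0.11). The block also called 0 of 10 in Full Tumor against Control (0.813% of all genes), Tumor without Myelin against Control (0.745%), Full Tumor against Myelin Alone (0.112%) and Myelin Alone against Control (0.0373%).

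These counts rested on number 016, which was already known to differ in these data for interferon-induced genes. Without its 4 libraries, the pooled tumor effect called B2m and H2-K1 (2 of 10) with group only, among 115 genes called in all. With the block it called 6 of 10, among 259 genes called in all: H2-K1 (0.44, edgeR adjusted p = 0.00367), B2m (0.53, adjusted p = 0.00406), Tap1 (0.94, adjusted p = 0.014), Psmb9 (0.64, adjusted p = 0.015), Nlrc5 (0.84, adjusted p = 0.022) and Tapbp (0.51, adjusted p = 0.0449). Leaving out Full Tumor 016 alone, with the block, called Nlrc5, among 269 genes called in all. Without number 016, the block also called B2m in Full Tumor against Control (0.65, edgeR adjusted p = 0.0142, among 183 genes called in all) and H2-K1 in Full Tumor against Myelin Alone (0.48, edgeR adjusted p = 0.0324, among 120 genes called in all).

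Within each number, the tumor difference can be read as the mean log2 CPM of its 2 tumor libraries minus that of its Myelin Alone and Control libraries. For H2-K1 it was −0.43 in number 016, against 0.36 in 957 and 0.51 in 958. For B2m it was −0.19 in 016, against 0.36 and 0.70, and for H2-D1 −0.49 in 016, against 0.01 and 0.23. Both heavy chains and their light chain thus pointed down in 016 and up elsewhere, though by only 0.01 for H2-D1 in 957. Psmb8, Psmb9 and Psmb10 gave −0.25, −0.21 and −0.38 in 016, against 0.41, 0.68 and 0.40 in 957 and 0.29, 0.59 and 0.26 in 958. Tapbp gave −0.22 in 016, against 0.26 in 957 and 0.74 in 958, and Tap2 −0.33 in 016, against 0.12 and 0.11. Tap1 and Nlrc5 did not point down in 016: Tap1 gave 0.02 there, against 0.80 and 1.08, and Nlrc5 0.11, against 0.65 and 1.04.

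**Figure D2:**
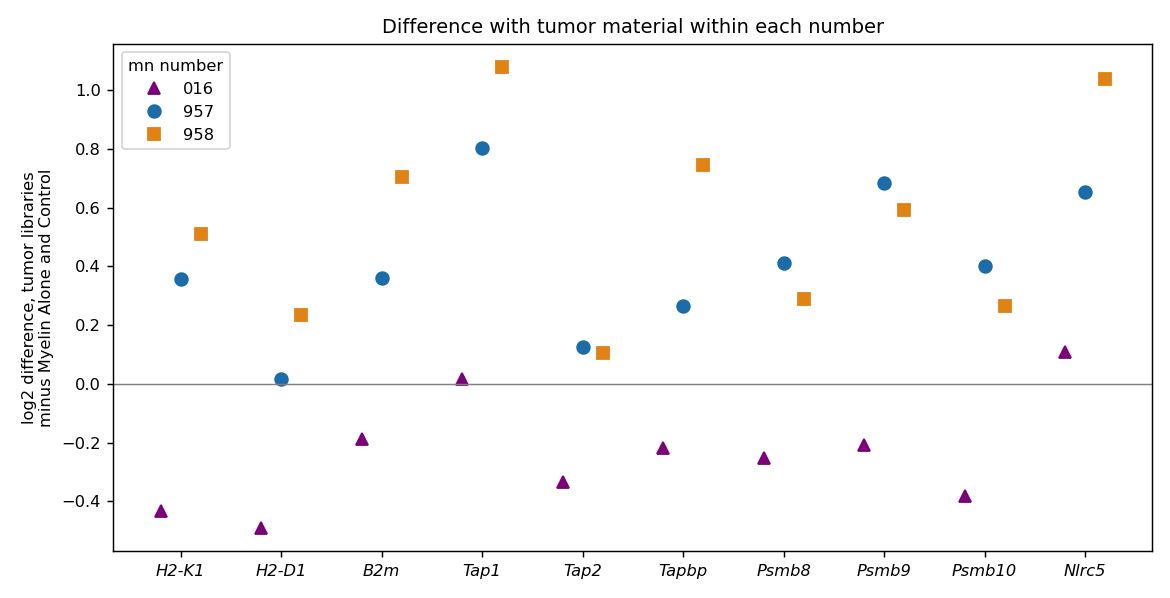
Difference between the tumor libraries (Full Tumor, Tumor without Myelin) and the others (Myelin Alone, Control) of the same mn number, in log2 CPM (vertical axis), for the 10 genes (horizontal axis). Triangles (016) run between −0.49 for H2-D1 and 0.11 for Nlrc5, and circles and squares (957 and 958) between 0.01 for H2-D1 and 1.08 for Tap1.

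Counting libraries that did not overlap gave the same picture. In number 016 both tumor libraries lay below both others for 6 of 10 members, H2-K1, H2-D1, B2m, Tap2, Psmb8 and Psmb10, against 23.6% of all genes. They lay above both others for 0 of 10, against 25.4% of all genes. In 957 both tumor libraries lay above both others for 8 of 10 members (16.3% of all genes), and in 958 for 9 of 10 (19.3%). Of the members, 8 of 10 did so in both 957 and 958, all but Tap2 and H2-D1, against 5.25% of all genes. The full pattern, above in 957 and 958 and below in 016, was shown by H2-K1, B2m, Psmb8 and Psmb10, which is 4 of 10 members against 0.649% of all genes. The 10 genes are not independent of each other, and 016 was already known to differ in these data for interferon-induced genes.

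The difference between numbers was then tested in a fit with number, myelin, tumor material and the product of tumor material with number 016 as terms. H2-K1 had a tumor effect of −0.43 ± 0.08 in number 016 and 0.43 ± 0.06 in 957 and 958, a difference of −0.87 ± 0.10 (edgeR adjusted p = 0.000986). H2-D1 differed by −0.62 ± 0.10 (−0.49 ± 0.08 in 016 and 0.13 ± 0.06 in 957 and 958, edgeR adjusted p = 0.0138). B2m differed by −0.72 ± 0.13 (−0.19 ± 0.10 and 0.53 ± 0.07, edgeR adjusted p = 0.0238) and Psmb10 by −0.71 ± 0.14 (−0.38 ± 0.12 and 0.33 ± 0.08, edgeR adjusted p = 0.0454). These 4 of 10 members were called, all lower in 016, against 0.79% of all genes called in either direction and 0.544% called lower. The test was written knowing that 016 differed for other genes in these data, so it is no independent evidence that 016 stands apart.

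The other 6 members had differences of the same sign that did not pass. Psmb8 was at −0.60 ± 0.12 (edgeR adjusted p = 0.0527), Psmb9 at −0.84 ± 0.19 (adjusted p = 0.0884), Tapbp at −0.73 ± 0.18 (adjusted p = 0.117), Tap1 at −0.93 ± 0.26 (adjusted p = 0.179), Nlrc5 at −0.72 ± 0.26 (adjusted p = 0.342) and Tap2 at −0.46 ± 0.28 (adjusted p = 0.627). Tap1 had the largest difference of the 10 and also a larger SE than the called members. The median over the 10 members was −0.72, beside a median of −3.22e-05 over all genes tested.

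H2-K1 was called in this difference under all 15 alternatives tried, at −0.93 to −0.84. The call of the other members depended on single libraries: without Full Tumor 016, Tumor without Myelin 016 or Control 016, H2-K1 was the only member called, and without Tumor without Myelin 958 only H2-K1 and H2-D1 were. H2-D1 was called in 12 of the 15 alternatives, B2m in 11 and Psmb10 in 3. The p-values rest on the 4 libraries of 1 number, in which libraries with and without myelin serve as each other's replicates once a common myelin term is taken out.

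**Figure D3:**
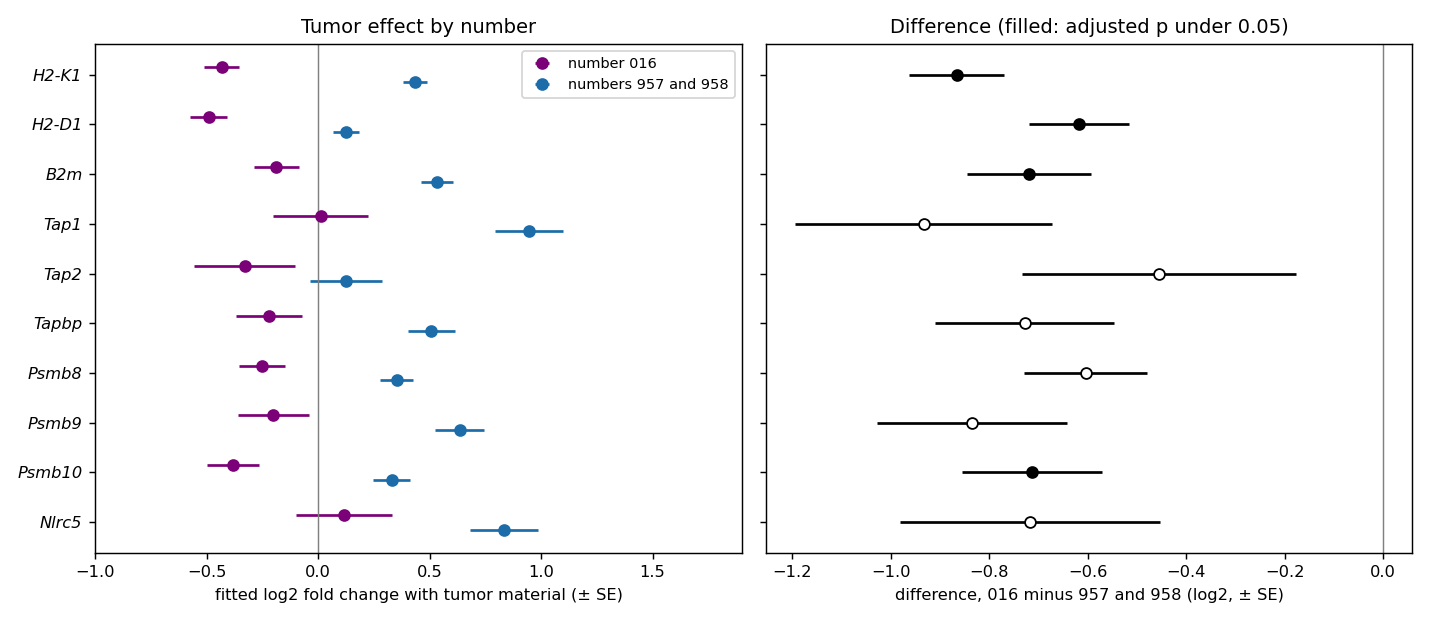
Left, fitted log2 fold change with tumor material (± SE, horizontal axis) in number 016 and in numbers 957 and 958 for the 10 genes. Right, the difference between them, 016 minus 957 and 958, with filled points where the edgeR adjusted p was under 0.05. All 10 differences lie left of 0, between −0.93 for Tap1 and −0.46 for Tap2, and 4 points are filled.

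In 957 and 958 taken by themselves in that fit, 7 of 10 members rose with tumor material, against 2.35% of all genes called and 1.89% called higher. These were Tap1 (0.94 ± 0.15, edgeR adjusted p = 0.00408), Nlrc5 (0.83 ± 0.15, adjusted p = 0.0109), Psmb9 (0.63 ± 0.11, adjusted p = 0.00779), B2m (0.53 ± 0.07, adjusted p = 0.00141), Tapbp (0.51 ± 0.11, adjusted p = 0.0253), H2-K1 (0.43 ± 0.06, adjusted p = 0.000762) and Psmb8 (0.35 ± 0.07, adjusted p = 0.0232). Psmb10 (0.33 ± 0.08, adjusted p = 0.0663), H2-D1 (0.13 ± 0.06, adjusted p = 0.459) and Tap2 (0.13 ± 0.16, adjusted p = 0.885) were not called. The median of the 10 was 0.47, beside −0.01 over all genes tested. Between 5 and 7 members were called when a library was left out, and B2m, H2-K1, Tap1, Psmb9 and Nlrc5 were called each time.

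In number 016, H2-K1 and H2-D1 fell with tumor material, by 0.43 (edgeR adjusted p = 0.0182) and 0.49 (edgeR adjusted p = 0.0126) on the log2 scale. These 2 of 10 members stand against 1.57% of all genes called, 0.507% lower and 1.06% higher. The others ran between −0.38 ± 0.12 (Psmb10, edgeR adjusted p = 0.144) and 0.12 ± 0.22 (Nlrc5, edgeR adjusted p = 0.882). Without Full Tumor 016, Tumor without Myelin 016 or Control 016 neither heavy chain was called, and without Myelin Alone 016 H2-D1 alone was.

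Markers of other cells were read beside these results. Microglia markers (Olfml3, Fcrls, Tmem119, P2ry12 and Siglech, 5 of 6 listed) summed to 279 to 395 CPM in Full Tumor and 358 to 475 CPM in Tumor without Myelin, against 154 to 307 CPM in Myelin Alone and 101 to 288 CPM in Control, and within each number, 016 included, both tumor libraries were above both others. Olfml3 carried most of that sum, with a mean of 222 CPM over the 12 libraries, while P2ry12 averaged 1.16 CPM, with tumor and other libraries overlapping in 957 and in 016, and Siglech was at most 0.729 CPM. Sall1 had no row in the table used here. Endothelial markers (4 of 5 listed) summed to 30.5, 31.6 and 28.0 CPM in Full Tumor and 23.4, 30.8 and 26.4 CPM in Tumor without Myelin, against 19.1, 22.5 and 25.0 CPM in Myelin Alone and 18.2, 24.1 and 22.5 CPM in Control, in the order 957, 958 and 016. Within each number both tumor libraries were above both others for this sum too, while Cdh5 was at most 0.771 CPM. The macrophage marker sum had the same order in each number. In 016 it was 14907 CPM in Full Tumor and 16702 CPM in Tumor without Myelin, against 13291 CPM in Myelin Alone and 13329 CPM in Control. Neutrophil markers (Mpo, Elane, S100a8 and others, with a row for 7 of 7) summed in number 016 to 14.8 CPM in Full Tumor and 45.9 CPM in Tumor without Myelin, against 113 CPM in Myelin Alone and 236 CPM in Control. In 957 and 958 they summed to 10.3 to 86.1 CPM with no such order. The part of these marker lists in the results was not tested.

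Ratios within a library do not depend on its depth. The immunoproteasome subunits were set over the constitutive subunits whose place they take, per kilobase. Psmb8 over Psmb5 was 0.614, 0.693 and 0.433 in Full Tumor and 0.718, 0.773 and 0.483 in Tumor without Myelin, against 0.433, 0.512 and 0.413 in Myelin Alone and 0.531, 0.548 and 0.545 in Control, in the order 957, 958 and 016. The ratio was highest in the tumor libraries of 957 and 958, whereas in 016 it was highest in Control. Psmb9 over Psmb6 was 0.102, 0.11 and 0.0445 in Full Tumor and 0.118, 0.151 and 0.061 in Tumor without Myelin, against 0.0608, 0.0713 and 0.047 in Myelin Alone and 0.082, 0.0807 and 0.0479 in Control. Psmb10 over Psmb7 was 1.51 to 4.02 in Full Tumor and 1.67 to 4.91 in Tumor without Myelin, against 1.77 to 3.07 in Myelin Alone and 2.28 to 4.27 in Control, with the lowest value of each group in 016.

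The tumor difference of the ratio, in log2, was −0.05 in 016 for Psmb8 over Psmb5, against 0.47 in both 957 and 958. For Psmb9 over Psmb6 it was 0.13 in 016, against 0.63 and 0.76, and for Psmb10 over Psmb7 −0.34 in 016, against 0.17 and 0.29. In 957, however, Psmb10 over Psmb7 was higher in Control (3.80) than in Full Tumor (3.47) or Tumor without Myelin (3.51). In 958 Control (4.27) lay between Full Tumor (4.02) and Tumor without Myelin (4.91). Myelin Alone was lowest in both, at 2.52 and 3.07. Tap1 over Tap2, the subunits of 1 transporter, gave 0.35 in 016, against 0.68 and 0.97. H2-K1 over H2-D1 gave 0.06 in 016, against 0.34 and 0.28, so the heavy chains moved together in 016 and unequally in 957 and 958. These ratios were not tested.

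**Figure D4:**
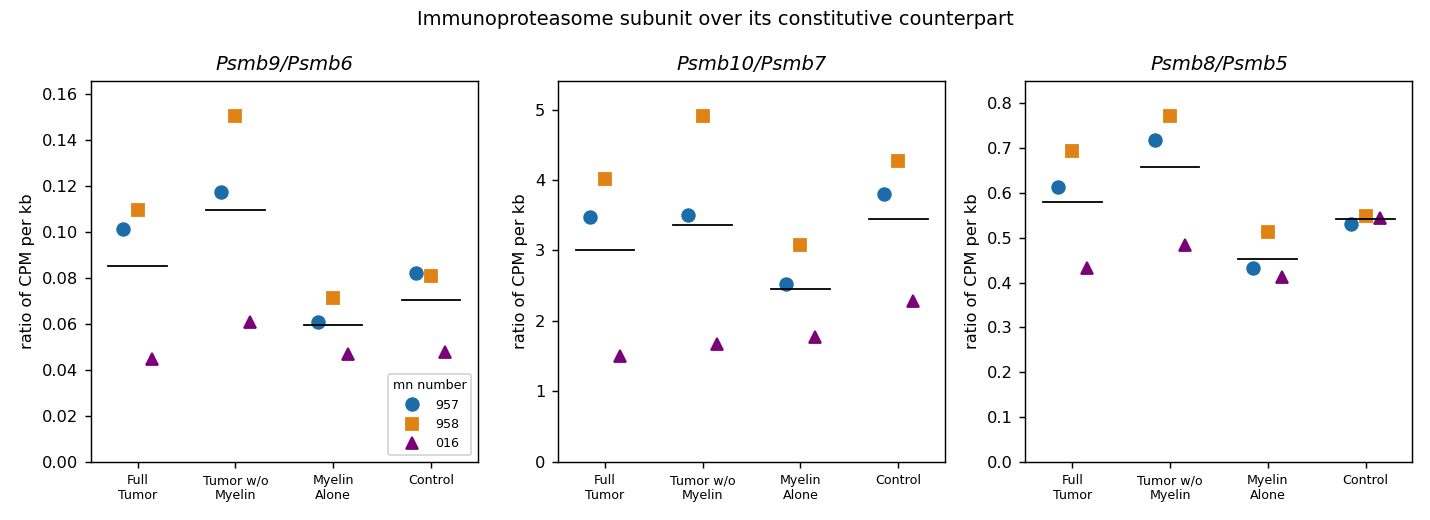
Ratio of CPM per kilobase of each immunoproteasome subunit over its constitutive counterpart (vertical axes, starting at 0) in the 4 groups (horizontal axes), with a marker per mn number and a bar at the group mean. For Psmb9 over Psmb6, numbers 957 and 958 reach 0.118 and 0.151 in Tumor without Myelin, while 016 stays between 0.0445 and 0.061.

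The rest of the pathway was read from lists of related genes, chosen with results of these data known, and in the fit by number. Among other class I heavy chains, 12 of 16 with a row were tested, and in 957 and 958, 3 rose and 0 fell: H2-T23, which displays leader peptides of other class I chains to NK cell receptors (0.67 ± 0.09, edgeR adjusted p = 0.0013), H2-T22 (0.78 ± 0.11, adjusted p = 0.00156) and H2-T24 (1.98 ± 0.19, adjusted p = 6.38e-05). All 3 also differed in 016, by −1.25 ± 0.16 (edgeR adjusted p = 0.00231), −1.10 ± 0.19 (adjusted p = 0.022) and −2.26 ± 0.32 (adjusted p = 0.00609). H2-T23 was at 458, 448 and 167 CPM in Full Tumor and at 424, 513 and 169 CPM in Tumor without Myelin, against 293, 247 and 235 CPM in Myelin Alone and 342, 284 and 268 CPM in Control, an arrangement like that of H2-K1. In 016, 2 of 12 fell, H2-T23 (−0.58 ± 0.13, edgeR adjusted p = 0.0488) and H2-K2 (−1.61 ± 0.29, adjusted p = 0.0175). H2-K2 has no coding transcript in GENCODE M21 and did not rise elsewhere, with within-number differences of −0.39 in 957 and −0.02 in 958. The list median was −0.59 in 016 and 0.67 in 957 and 958, but much of the list was at low levels. H2-Q1, H2-Q4, H2-Q5, H2-Q6, H2-Q7, H2-T10 and H2-M2 averaged between 1.09 CPM (H2-Q5) and 5.70 CPM (H2-M2). The lowest mean of a member was 27.8 CPM (Tap2). Heavy chain genes also resemble each other in sequence, so their reads may be split between them.

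No constitutive proteasome gene was called. None of Psmb5, Psmb6 and Psmb7 (0 of 3) and none of the other core subunits (0 of 11) was called in 016, in 957 and 958 or in the difference by edgeR. In 016 Psmb5, Psmb6 and Psmb7 lay between −0.34 and −0.04 with a median of −0.20 (lowest edgeR adjusted p = 0.147), against a median of −0.06 in 957 and 958. Their range in 016 overlapped that of Psmb8, Psmb9 and Psmb10, which were not called there either, and the difference between the constitutive and the immunoproteasome subunits was not tested. The other core subunits had medians of −0.08 in 016 and 0.01 in 957 and 958. Of the proteasome activators and assembly factors, 2 of 7 rose in 957 and 958, Psme1 (0.39 ± 0.08, edgeR adjusted p = 0.0248) and Psme2 (0.31 ± 0.07, adjusted p = 0.0402), which together form the interferon-induced PA28 cap of the proteasome. In 016 they were at −0.16 ± 0.11 and −0.25 ± 0.10 and were not called, and their difference was not called either (edgeR adjusted p = 0.128 and 0.0646).

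Chaperones of peptide loading moved otherwise. Calr, Pdia3 and Hspa5 rose in 957 and 958 (3 of 10 on the list), by 0.46 ± 0.07, 0.43 ± 0.08 and 0.58 ± 0.12 (edgeR adjusted p = 0.00363, 0.0156 and 0.022). In 016 Calr rose by 0.59 ± 0.10 (edgeR adjusted p = 0.0142) and Pdia3 by 0.62 ± 0.12 (adjusted p = 0.0228), while Hspa5 stood at 0.73 ± 0.17 (adjusted p = 0.0556). Calr was at 553, 470.2 and 638 CPM in Full Tumor and at 433, 439 and 609 CPM in Tumor without Myelin, against 378, 389.7 and 432 CPM in Myelin Alone and 317, 298 and 399.8 CPM in Control. The tumor libraries were the higher pair in each number, 016 included, unlike H2-K1 or B2m. These proteins are general chaperones of the endoplasmic reticulum that also serve other cargo.

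Class I-like molecules split. In 957 and 958 Hfe, the class I-like regulator of iron uptake, rose by 0.54 ± 0.11 (edgeR adjusted p = 0.0229) and Procr, the endothelial protein C receptor, fell by 0.68 (edgeR adjusted p = 0.00406), with 5 tested. In 016 Procr fell by 0.92 (edgeR adjusted p = 0.0115) and Hfe was at 0.59 ± 0.16 (adjusted p = 0.103).

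Among transcription factors that act on class I genes, the ones called were of interferon signalling, but not all such factors were called. Irf1, Irf8 and Stat3 were called in no comparison, and Irf1 gave within-number differences of −0.07 in 957, 0.23 in 958 and −0.05 in 016. Stat2, a signal carrier of the type I interferon receptor, was at 98.6, 92.6 and 40.6 CPM in Full Tumor and at 115, 141 and 43.3 CPM in Tumor without Myelin, against 30.8, 36.6 and 27.8 CPM in Myelin Alone and 37.2, 45.6 and 35.1 CPM in Control. The tumor libraries were the higher pair in each number, with a narrower gap in 016. Of 18 factors, 2 rose in 957 and 958: Stat2 (1.57 ± 0.10, edgeR adjusted p = 3.72e-06) and Irf9 (1.11 ± 0.16, adjusted p = 0.00162), which binds DNA in response to type I interferon. In 016, 0 of the 18 were called, and the difference was called for Stat2 (−1.14 ± 0.18, edgeR adjusted p = 0.0113). With the number as a block over all libraries, Stat2, Irf9 and Irf2 were called higher in the pooled tumor effect (edgeR adjusted p = 0.00628, 0.0224 and 0.0423), while 0 of the 10 members were.

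Interferons themselves could hardly be read. Ifnb1 had 1 count over the 12 libraries, and Ifng and Ifna4 have no row in the table used here. Of 7 tested genes for interferon receptors and their kinases, 0 were called in 016, in 957 and 958 or in the difference. Ifngr1, which binds interferon gamma, was at 241, 253 and 278 CPM in Full Tumor and at 351, 242 and 324 CPM in Tumor without Myelin. It was at 274, 190 and 203 CPM in Myelin Alone and at 281, 258 and 196 CPM in Control, all in the order 957, 958 and 016. Its tumor libraries were the higher pair in 016 and overlapped the others in 957 and 958.

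**Figure D5:**
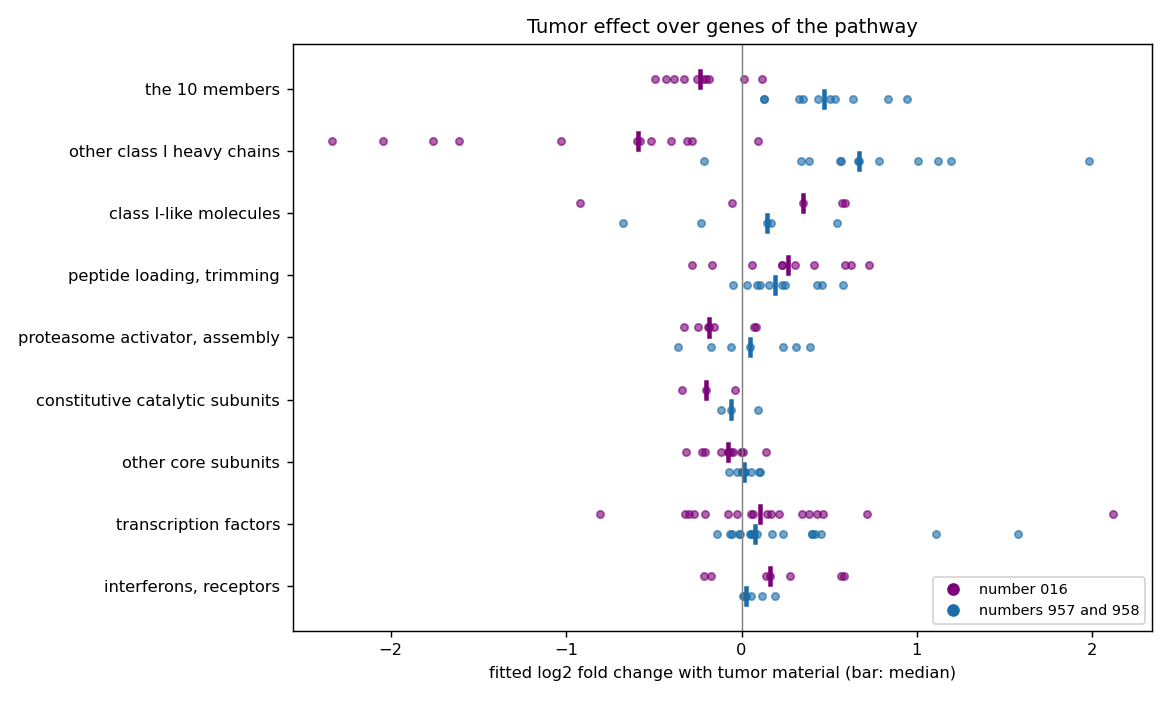
Fitted log2 fold change with tumor material (horizontal axis) for the 10 members and the tested genes of 8 related lists (rows), in number 016 and in numbers 957 and 958, with a bar at each median. Members and other class I heavy chains have medians of −0.24 and −0.59 in 016 and 0.47 and 0.67 in 957 and 958, while the other core proteasome subunits have medians of −0.08 and 0.01. The other class I heavy chains include genes with low mean levels, down to 1.09 CPM for H2-Q5.

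Among themselves the members moved closely, with the exception of Tap2. Over the 12 libraries, Pearson's r between pairs of members in log2 CPM had a median of 0.69 over 45 pairs, with the highest value of 0.954 for Psmb8 and Psmb9 and the lowest of −0.218 for Psmb9 and Tap2. After the mean of each number was taken out, the median was 0.725 and the highest pair was B2m and Tapbp (0.949). Against the mean of all 10 members, each scaled, r was 0.961 for H2-K1 and 0.0343 for Tap2, or 0.498 for Tap2 with number means taken out. The points share libraries and depth, and the members are part of the mean, so these are descriptions without a test.

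Other genes with the most similar profile were sought among 8246 tested genes at 10 CPM or more on average. Over the 12 libraries the highest r to the mean of the members was held by H2-T23 (0.973), H2-T22 (0.963), Oas3 (0.96), Ly6e (0.958), Slfn5 (0.946), Ccdc86 (0.946), Znfx1 (0.943) and Ifi35 (0.941). With number means taken out it was held by Oas1a (0.958), H2-T23 (0.957), Usp18 (0.955), Xaf1 (0.951), Ube2l6 (0.942), H2-T22 (0.94), Casp4 (0.938) and Oas3 (0.933). H2-T23 and H2-T22 are nonclassical class I heavy chains, and Oas1a, Oas3, Usp18, Xaf1 and Ifi35 are known as interferon-induced genes.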

How the data were processed

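The authors deposited raw counts per gene for 12 mouse RNA libraries, whole numbers without normalization, made by a template-switching protocol from small numbers of sorted cells, per the labels' protocols. The build is mm10, per the submitters' processing notes. Aligner, counter and strandedness were not given in the sources used here. Every value column matched 1 sample by its label. The 3 libraries of each of 4 groups were tested with edgeR 4.0.16 (R 4.3.3): TMM factors, filterByExpr, quasi-likelihood test, all 12 libraries in 1 fit with group as the only term, Benjamini-Hochberg adjustment over 13414 genes, threshold 0.05, two-sided. CPM uses library totals times TMM factors. SE was derived from each fold change and its F statistic. Lengths come from GENCODE M21, in which 24670 of 24728 genes were found. Promoter windows are RefSeq's.

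The mn numbers were checked for pairing before calls were compared: deviations from group means correlated at r over 0.1 in 18 of 18 same-numbered pairs of libraries (0.12 to 0.631), so the numbers pair the libraries. Fits with the number as a block, with another scaling (RLE, library totals alone), without the filter, with DESeq2 and without single libraries or numbers were alternatives. The fits were tested on simulated counts with 200 changed genes. For Full Tumor against Control, group only found 26% of 2-fold and 84% of 4-fold changes, and the block 81.3% and 99.3%. The fit with the product found 43% and 92.3% for the difference of 016. Mean false calls were 0, 12 and 7 in that order of fits. No replicate pair was a duplicate by a chi-square test of counts. All 10 members are named whatever their values; other genes are named by list when called or by the highest levels, and 8 per ranking by their r. The members, lists and the test of number 016 were chosen with earlier results of these data known. Intervals were not computed for single libraries, and count floors cover counting error only. Some items of the marker and pathway lists are not reported here and were left out of their counts and sums.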

Additional observations from a re-analysis of the deposited data

Results flagged for a closer look

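Of the results above, 4 stand out because the effect of tumor material differed between the mn numbers by the test of the difference itself. H2-K1 differed by −0.87 on the log2 scale between number 016 and numbers 957 and 958, H2-D1 by −0.62, B2m by −0.72 and Psmb10 by −0.71, with edgeR adjusted p values of 0.000986, 0.0138, 0.0238 and 0.0454. Every one was lower in 016. Neutrophil markers in 016 summed to 14.8 and 45.9 CPM in the tumor libraries, against 113 and 236 CPM in Myelin Alone and Control, and their part in the difference was not tested. The labels do not say what the number stands for.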

How the results depend on the processing

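With group only, RLE factors, library totals alone, no low-count filter and DESeq2 each called 0 of 10 members in all 7 comparisons over the 3 numbers, as did the replicate block (paired fit): 0 in each. Leaving out libraries or numbers, with and without the block, gave 0 to 6 members in the pooled tumor effect, 0 to 1 in Full Tumor against Control and 0 to 1 in Full Tumor against Myelin Alone, and 0 in the other 4. The upper ends come from leaving out number 016. The difference between 016 and the other numbers called 4 members in the fit as reported, 4 with RLE factors, 3 with library totals alone (added after seeing the data), 5 without the filter and 1 to 4 without a library. The tumor effects within 957 and 958 and within 016 were not planned, and they and their alternatives were added after seeing the data. That in 957 and 958 called 7 members as reported, 6 to 7 under the other scalings and filter, and 5 to 7 without a library. That in 016 called 2, and 0 to 2 without a library. Of 2900 recomputed fold changes of members, 275 changed sign, none of them in a called value, 12 came to pass the threshold and 39 ceased to pass it. The causes were not tested. All members had 363 counts or more in every library, at a depth of at least 17071673 counts. In the difference for 016, SE was largest for Tap2 (0.28), Nlrc5 (0.26) and Tap1 (0.26), the members with the lowest mean CPM. It was 0.10 for H2-K1. What set the precision was not tested.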
